A study of Homo sapiens with 18 samples.

Results

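The genes described here are 50 interferon-stimulated genes and their STAT and IRF regulators, taken by name from a list. The rule uses no level or response, but the list was drawn up with earlier results of these data known. They are 50 of the 26916 genes with any estimated count in the series, and 48 of them were among the 16785 genes that passed the filter on low counts. The RNA sensor gene DHX58 and EPSTI1 did not pass it. DHX58 held 117 estimated counts over all 18 libraries, and EPSTI1 held 2, which is no measurement.

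The 18 libraries of polyA RNA came from the human osteosarcoma line U2OS, 3 for each of 6 groups, and the labels name those 3 biological replicates. Every cell line carried an integrated mCherry sequence, which codes for a red fluorescent protein. It was joined to EWS(YS37)-FLI1, to EWS-FLI1mut or to EWS-FLI1 in 3 untreated groups and stood alone in the mCherry group. Ewing sarcoma is driven by EWS-FLI1, a fused transcription factor with the low-complexity part of EWS joined to the ETS-type DNA-binding domain of FLI1. EWS-FLI1 cells were also given LY2835219 at 7.5 µM, either for 6 h or for 24 h. LY2835219 is abemaciclib, which blocks CDK4 and CDK6, kinases of the cell cycle. One passage of the labels names other treatment times. What was changed in EWS-FLI1mut and in YS37, whether a line was 1 clone or a pool, and whether untreated cells received a vehicle are not given in the sources used here. The labels name a pair of library kits without assigning them to libraries, and no independently made line of a construct is labelled, so the errors below do not cover differences between lines.

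Interferons are secreted proteins that bind receptors on the cell surface and switch on JAK kinases and STAT factors. Type I interferons bring STAT2 and IRF9 together with a further STAT into a complex that binds the interferon-stimulated response element (ISRE) in target promoters, while interferon gamma acts mainly through STAT dimers at GAS elements. The genes they raise cut or mask viral RNA, block virus entry and budding, sense foreign RNA, or attach the ubiquitin-like protein ISG15 to other proteins, and many are transcribed at a low level without added interferon.

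Total estimated counts lay between 16261034 and 20270637 per library. FLI1, which marks the constructs, averaged 1019 ± 43.99 CPM (estimated counts scaled to library size with TMM factors; SD, n = 3) in EWS(YS37)-FLI1, 641.8 ± 19.92 in EWS-FLI1mut, 247.3 ± 16.27 in EWS-FLI1 and 0.55 ± 0.56 in mCherry. In treated EWS-FLI1 cells it averaged 406.3 ± 21.77 CPM at 6 h and 236.4 ± 10.41 CPM at 24 h. The constructs thus differed in FLI1 level, and how far that level moves with the results below was not tested. Osteoblast-lineage markers matched the label in part: SPARC, COL1A1 and RUNX2 were expressed, and BGLAP, IBSP and SP7 were near 0. COL1A2 reached at most 1.68 CPM, ALPL 13.1 CPM and SPP1 11.6 CPM. The epithelial markers, KRT8 and KRT18 above all, summed to 498 to 548 CPM in mCherry and 790 to 815 CPM in EWS-FLI1. They summed to 748 to 785 CPM in EWS(YS37)-FLI1 and 760 to 780 CPM in EWS-FLI1mut. In treated EWS-FLI1 cells the sums were 927 to 973 CPM at 6 h and 416 to 454 CPM at 24 h. Endothelial markers summed to 8.04 to 21.2 CPM over all groups. The 10 blood and immune cell markers summed to 3.32 to 6.02 CPM in untreated EWS-FLI1 cells, 10.3 to 12.1 CPM at 6 h and 19.3 to 22.0 CPM at 24 h. CD68 alone gave up to 19.3 CPM of this, CD3E was at 0 in every library and PTPRC stayed at or below 1.28 CPM. The part of the cells or states that these markers mark in the construct and drug results was not tested. In RNA from a whole culture, fewer cells with a transcript and less of it per cell cannot be told apart.

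On the TPM scale, which corrects for transcript length, the 50 genes ranged from abundant to barely detected. LGALS3BP, a secreted glycoprotein, and IFITM3, which blocks virus entry at endosomes, had a mean level of at least 100 TPM over the 18 libraries (222.8 and 213.5 TPM). Another 18 genes had a mean level of 10 to 100 TPM, led by ADAR, which edits adenosine in double-stranded RNA (81.0 TPM), IFITM2 (47.7 TPM), TRIM22 (42.8 TPM), IFI6 (38.0 TPM), ISG15 (34.6 TPM) and EIF2AK2, the RNA-activated kinase PKR (33.3 TPM). A further 22 lay between 1 and 10 TPM. The remaining 8 were under 1 TPM, namely OAS1, IRF7, HERC5, IFIT2, DHX58, OAS2, RSAD2 (0.217 TPM) and EPSTI1 (0.00243 TPM). Low abundance limits the precision for this last set most.

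**Figure D1:**
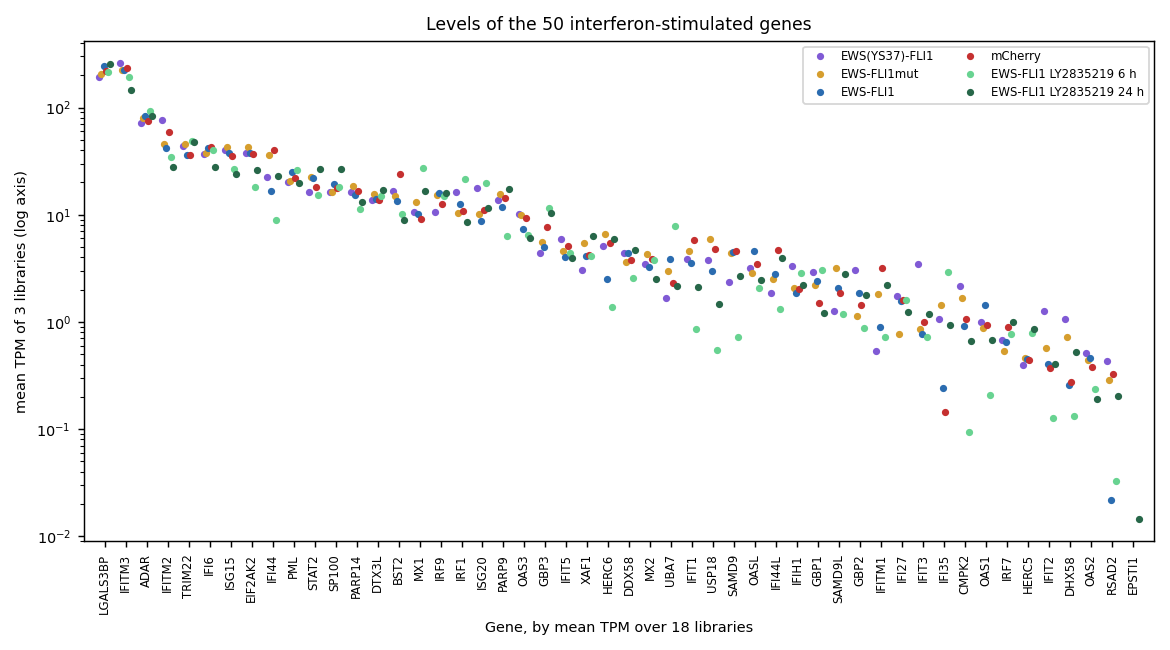
Level of each of the 50 genes in TPM on a log axis, with 1 point for the mean of 3 libraries of each group, coloured by group, and the genes ordered by their mean over 18 libraries; group means of 0 are not drawn. LGALS3BP and IFITM3 stand at the top with means of 222.8 and 213.5 TPM, and EPSTI1 is at the bottom with 0.00243 TPM.

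The interferons themselves were nearly silent. Of 21 interferon genes, 14 were at 0 in all 18 libraries and 18 had at most 3 estimated counts in total. IFNE, an epithelial type I interferon, held the most, with 0.0511, 0 and 0.0537 CPM in untreated EWS-FLI1 cells, 1.28, 1.58 and 1.303 CPM at 6 h and 0.159, 0 and 0.156 CPM at 24 h. All 3 libraries at 6 h lay above the untreated ones (log2 fold change 5.06 ± 1.00 SE, adjusted p = 0.000137, edgeR quasi-likelihood test with Benjamini-Hochberg adjustment over all genes, as for every adjusted p here). With untreated libraries at or near 0 the size of that fold change depends on the fit and is no measured ratio.

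Promoter sequences from RefSeq (GRCh38.p14; 250 bases before to 50 after the start of the gene) were found for 38 of the 50 genes. The ISRE core GAAANNGAAA, searched on both strands, was present in 24 of the 38 (63.2%), against 3.57% of 35116 promoters. The GAS core TTCNNNGAA was present in 10 (26.3%), against 7.66% of all promoters. A pair of adjoining ETS cores, GGAAGGAA, the letters bound by FLI1-type domains, was present in 3 (7.9%; IFIT3, SAMD9 and PARP9), against 3.67% of all promoters. A match describes letters and shows no binding. Promoters of 7 genes whose values are given below are printed 5′ to 3′ on the strand of the gene, with the motif named for each in capitals. They show an ISRE core (GAAANNGAAA or its reverse complement) in IFIT1, IFIT3, IFI44, SAMD9 and DTX3L, a GAS core in IRF1 and the tandem ETS core in PARP9.
IFIT1, chr10:89392373-89392672, plus strand: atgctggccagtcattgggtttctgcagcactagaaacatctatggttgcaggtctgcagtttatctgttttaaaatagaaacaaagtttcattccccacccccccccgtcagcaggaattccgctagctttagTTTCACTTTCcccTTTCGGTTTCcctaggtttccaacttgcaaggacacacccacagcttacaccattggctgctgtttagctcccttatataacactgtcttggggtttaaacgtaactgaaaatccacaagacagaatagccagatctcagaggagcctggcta
IFIT3, chr10:89327747-89328046, plus strand: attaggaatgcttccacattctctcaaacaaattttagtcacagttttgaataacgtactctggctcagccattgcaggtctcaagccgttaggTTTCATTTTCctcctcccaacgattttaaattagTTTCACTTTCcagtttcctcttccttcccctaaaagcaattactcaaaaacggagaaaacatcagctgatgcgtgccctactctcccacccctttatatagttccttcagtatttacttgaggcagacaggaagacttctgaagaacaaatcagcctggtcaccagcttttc
IFI44, chr1:78649539-78649838, plus strand: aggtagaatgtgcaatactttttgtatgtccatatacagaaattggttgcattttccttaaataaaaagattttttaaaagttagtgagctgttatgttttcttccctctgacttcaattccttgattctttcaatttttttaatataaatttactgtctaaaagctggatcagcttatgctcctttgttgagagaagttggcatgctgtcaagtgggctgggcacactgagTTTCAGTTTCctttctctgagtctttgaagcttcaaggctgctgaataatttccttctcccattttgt
SAMD9, chr7:93117930-93118229, minus strand: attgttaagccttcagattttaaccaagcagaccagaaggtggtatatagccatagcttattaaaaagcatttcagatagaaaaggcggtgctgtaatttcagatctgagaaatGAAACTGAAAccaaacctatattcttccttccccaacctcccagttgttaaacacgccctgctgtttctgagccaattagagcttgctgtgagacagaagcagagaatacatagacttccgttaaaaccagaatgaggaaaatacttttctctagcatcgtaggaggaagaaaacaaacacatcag
IRF1, chr5:132490724-132491023, minus strand: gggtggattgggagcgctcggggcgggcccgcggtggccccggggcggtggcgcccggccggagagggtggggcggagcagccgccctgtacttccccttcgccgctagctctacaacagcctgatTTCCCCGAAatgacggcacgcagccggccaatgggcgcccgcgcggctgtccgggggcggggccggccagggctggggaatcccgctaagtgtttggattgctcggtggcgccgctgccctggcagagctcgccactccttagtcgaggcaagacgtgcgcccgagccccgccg
DTX3L, chr3:122564088-122564387, plus strand: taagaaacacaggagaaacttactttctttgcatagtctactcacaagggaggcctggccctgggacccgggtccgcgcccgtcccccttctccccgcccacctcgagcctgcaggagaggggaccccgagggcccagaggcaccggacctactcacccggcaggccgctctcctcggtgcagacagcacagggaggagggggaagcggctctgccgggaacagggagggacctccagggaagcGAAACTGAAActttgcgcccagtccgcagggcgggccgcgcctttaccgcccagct
PARP9, chr3:122564735-122565034, minus strand: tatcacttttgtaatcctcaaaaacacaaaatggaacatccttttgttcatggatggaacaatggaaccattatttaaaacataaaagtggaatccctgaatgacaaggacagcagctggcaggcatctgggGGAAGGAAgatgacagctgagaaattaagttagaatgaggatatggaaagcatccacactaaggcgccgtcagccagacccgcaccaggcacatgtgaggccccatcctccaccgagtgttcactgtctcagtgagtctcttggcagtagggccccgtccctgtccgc

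Counting from the first transcribed base as 1, with bases before it negative, IFIT1 carried ISRE cores at -116 and -103. IFIT3 carried a pair as well, and 1 each was found in the other 3 ISRE examples. PARP9 and DTX3L lie head to head on chromosome 3, and the printed windows of this pair do not overlap. DTX3L had the ISRE core and PARP9 did not in these windows.

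The share of the 48 tested genes that was called (adjusted p below 0.05) is given for each comparison beside the share of all genes, and the difference between these shares was not tested. EWS-FLI1 against mCherry gave 2 genes that rose and 8 that fell, or 20.8% of the 48, where 21.1% of all 16785 genes were called (11.1% rose, 9.95% fell). EWS-FLI1mut against mCherry gave none that rose and 2 that fell (4.17%; all genes 7.15%, with 3.53% rising and 3.62% falling). DESeq2 also gave 0 that rose, and 2 rose at an unadjusted p below 0.05. EWS(YS37)-FLI1 against mCherry gave 9 that rose and 7 that fell (33.3%; all genes 21.7%, with 11.5% rising and 10.2% falling). EWS-FLI1mut against EWS-FLI1 gave 6 and 3 (18.8%; all genes 16.3%, 7.51% and 8.78%). EWS(YS37)-FLI1 against EWS-FLI1 gave 14 and 8 (45.8%; all genes 31.1%, 16.3% and 14.8%).

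With the drug a majority of the 48 genes was called in each of the 3 comparisons, as was a majority of all genes at 6 h and between the times. At 6 h against untreated cells 16 rose and 13 fell (60.4%; all genes 64.9%, with 31.6% rising and 33.3% falling). At 24 h against untreated cells 12 rose and 16 fell (58.3%; all genes 48%, with 23.3% rising and 24.6% falling). Between 24 h and 6 h 13 rose and 17 fell (62.5%; all genes 62.9%, with 32.6% rising and 30.3% falling). The shares at 6 h and between the times were near those of all genes. The median log2 fold change of the 48 genes lay between -0.10 (EWS-FLI1mut against mCherry, beside 0 for all genes) and 0.19 (EWS(YS37)-FLI1 against EWS-FLI1, beside 0.02). It was 0.13 at 6 h and 0.13 at 24 h against untreated cells, beside -0.02 and 0.03 for all genes.

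**Figure D2:**
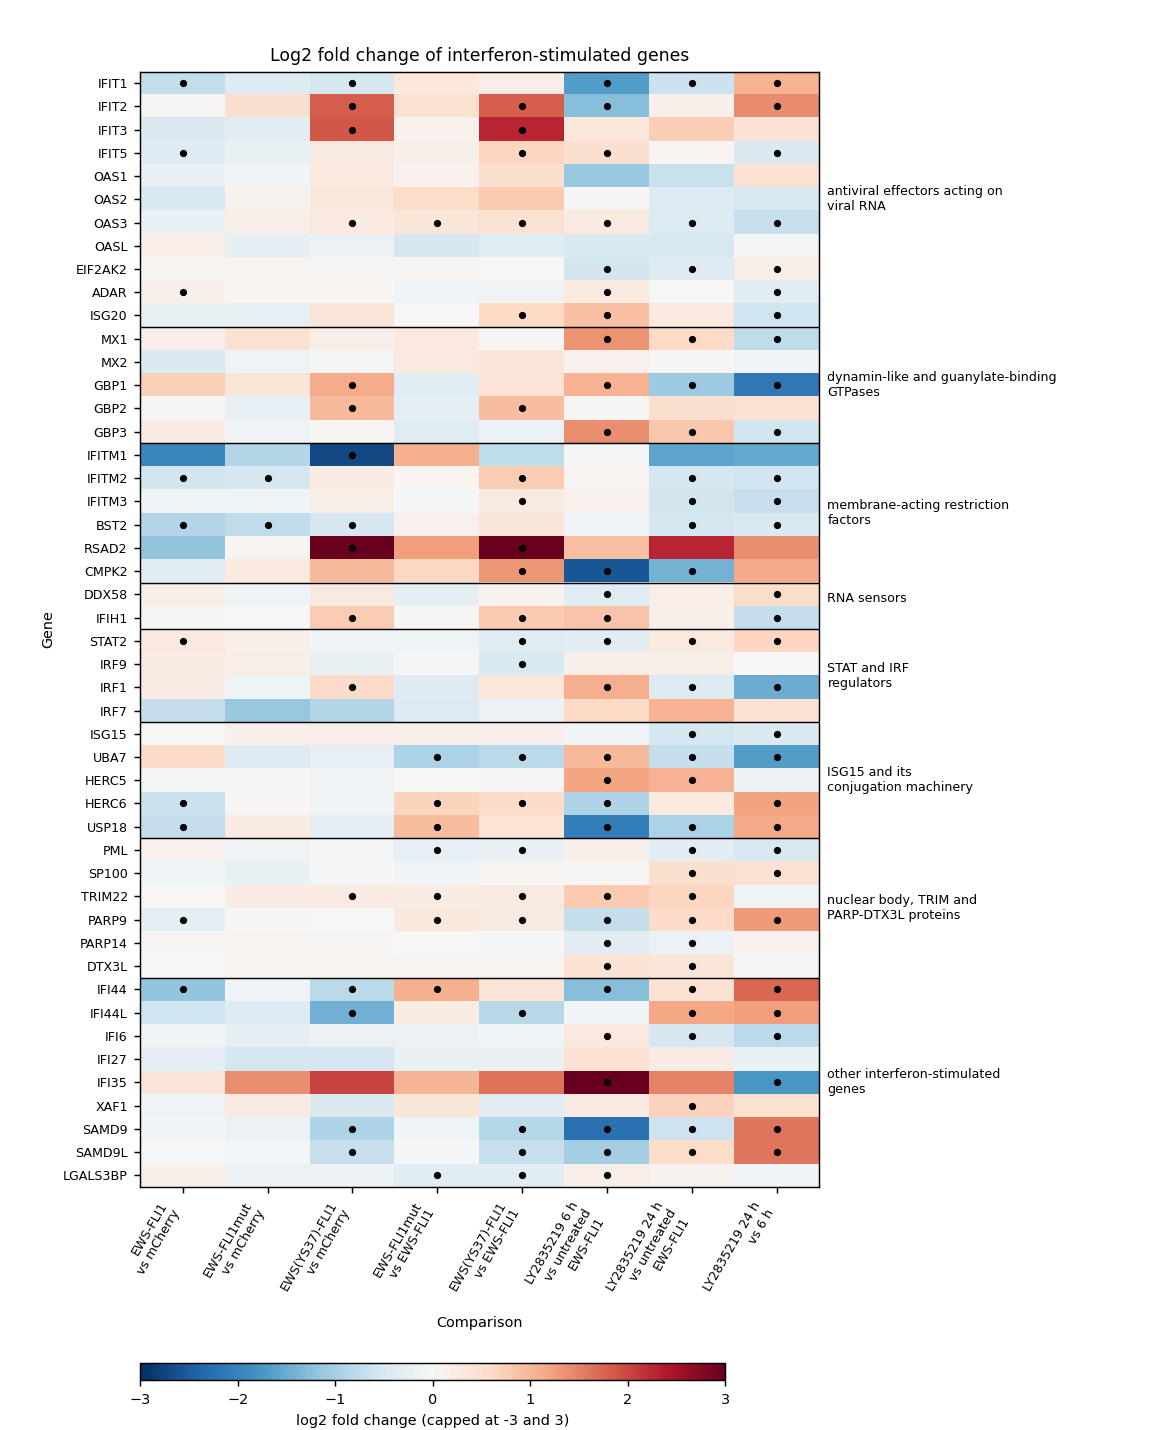
Log2 fold changes (the group named before "vs" over the one after it, colour capped at -3 and 3) of the 48 tested genes in the 8 comparisons, grouped by role, with colour for direction and size and a mark on each change with an adjusted p below 0.05. Rows mix both directions within a role, and the drug columns carry the most marks (29, 28 and 30 of 48).

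EWS-FLI1 against mCherry asks what the fusion changes in these cells. The antiviral and membrane genes IFIT1, IFI44, BST2 and IFITM2 fell in EWS-FLI1 cells, by 0.54 to 1.19 on the log2 scale. They are the 4 of 10 called genes that kept their call when any 1 of the 6 libraries was left out, with transcript length offsets and with limma on log2(TPM + 1). IFI44, an antiviral gene of little-known mechanism, had 11.96, 12.4 and 11.01 CPM in EWS-FLI1, against 24.6, 27.8 and 28.3 CPM in mCherry (log2 fold change -1.19 ± 0.15 SE, adjusted p = 5.72e-06). The groups did not overlap, and every EWS-FLI1 library was below every mCherry library. BST2, or tetherin, which holds budding virus at the cell surface, had 6.13, 8.56 and 7.84 CPM in EWS-FLI1, against 11.3, 13.8 and 16.3 CPM in mCherry (log2 fold change -0.88 ± 0.17 SE, adjusted p = 0.00061). IFIT1, which binds viral RNA with an unmethylated cap, had 11.4, 11.97 and 10.4 CPM in EWS-FLI1, against 17.1, 22.4 and 16.3 CPM in mCherry (log2 fold change -0.72 ± 0.15 SE, adjusted p = 0.00108). Neither gene overlapped between the groups. IFITM2, a relative of IFITM3 in endosomes, had 15.2, 14.4 and 16.8 CPM in EWS-FLI1, against 19.3, 23.9 and 24.4 CPM in mCherry (log2 fold change -0.54 ± 0.11 SE, adjusted p = 0.000896); 23.4% of its 31-base stretches also occur in transcripts of other genes, so its split from them is uncertain.

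The other 4 that fell, HERC6 (-0.65), USP18 (-0.71), IFIT5 (-0.38) and PARP9 (-0.28), and the 2 that rose, STAT2 and ADAR, depended more on single settings. STAT2, the factor specific to type I interferon signalling, had 56.2, 59.4 and 64.1 CPM in EWS-FLI1, against 40.2, 49.8 and 56.7 CPM in mCherry (log2 fold change 0.29 ± 0.091 SE, adjusted p = 0.0234), and was no longer called without EWS-FLI1 replicate 3 (adjusted p = 0.0805) or mCherry replicate 1 (adjusted p = 0.173). ADAR rose by little (log2 fold change 0.16 ± 0.049 SE, adjusted p = 0.0239) and lost its call without EWS-FLI1 replicate 1 (adjusted p = 0.0717), EWS-FLI1 replicate 2 (adjusted p = 0.0509) or mCherry replicate 3 (adjusted p = 0.0617). Without EWS-FLI1 replicate 3 the count of called genes was 6 in place of 10. By role, 2 of 6 membrane-acting genes and 2 of 5 genes of the ISG15 machinery fell, where 9.95% of all genes did, and none of the 5 dynamin-like or guanylate-binding GTPases was called.

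EWS-FLI1mut against mCherry gave 2 calls among these genes, BST2 and IFITM2, both lower in EWS-FLI1mut. BST2 had 7.75, 8.14 and 8.54 CPM in EWS-FLI1mut, against 11.3, 13.8 and 16.3 CPM in mCherry (log2 fold change -0.76 ± 0.17 SE, adjusted p = 0.007), with no overlap. IFITM2 had 15.7, 15.2 and 17.1 CPM in EWS-FLI1mut, against 19.3, 23.9 and 24.4 CPM in mCherry (log2 fold change -0.49 ± 0.11 SE, adjusted p = 0.00663). IFITM2 did not overlap between the groups either. The BST2 call was lost without mCherry replicate 3 (adjusted p = 0.053). Of the 2 calls, 1 was kept with length offsets. Kept with every library left out, length offsets and limma on TPM together were 0.

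Set directly against EWS-FLI1, EWS-FLI1mut cells had more IFI44, USP18 and PARP9 and less LGALS3BP, the 4 of 9 calls that every left-out library, the length offsets and limma on TPM kept. IFI44 had 21.3, 23.1 and 30.1 CPM in EWS-FLI1mut, against 11.96, 12.4 and 11.01 CPM in EWS-FLI1 (log2 fold change 1.07 ± 0.15 SE, adjusted p = 2.4e-05), and all mutant libraries were higher. USP18, the protease that removes ISG15 and dampens the type I receptor, had 7.498, 9.33 and 8.08 CPM in EWS-FLI1mut, against 4.24, 4.25 and 4.405 CPM in EWS-FLI1 (log2 fold change 0.95 ± 0.22 SE, adjusted p = 0.00452). The USP18 groups did not overlap, and 30.8% of its 31-base stretches also occur in other genes, USP41 among them, so their counts may be mixed. LGALS3BP had 250.1, 233 and 250.3 CPM in EWS-FLI1mut, against 294, 306.8 and 316 CPM in EWS-FLI1 (log2 fold change -0.32 ± 0.068 SE, adjusted p = 0.00174). PARP9, an ADP-ribosyltransferase that works with DTX3L, had 38.1, 39.2 and 40.9 CPM in EWS-FLI1mut, against 31.4, 32.4 and 31.7 CPM in EWS-FLI1 (log2 fold change 0.31 ± 0.079 SE, adjusted p = 0.00833). HERC6 (0.68), OAS3 (0.37) and TRIM22 (0.23) were also called higher and UBA7 (-0.95) and PML (-0.25) lower. OAS3 lost its call without EWS-FLI1 replicate 2 (adjusted p = 0.0662) and UBA7 without EWS-FLI1mut replicate 1 (adjusted p = 0.0535).

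In EWS(YS37)-FLI1 against mCherry, IFIT2, IFIT3, RSAD2, IFIH1 and IRF1 rose and IFI44, SAMD9 and IFI44L fell; IFI44 had also fallen in EWS-FLI1 against mCherry (-1.19 on the log2 scale). These are 8 of the 16 genes called against mCherry. IFIT3, which joins IFIT1 and IFIT2 in RNA-binding complexes, had 6.196, 6.42 and 5.905 CPM in EWS(YS37)-FLI1, against 1.21, 1.77 and 2.13 CPM in mCherry (log2 fold change 1.85 ± 0.37 SE, adjusted p = 0.000752). IFIT2 had 3.41, 3.63 and 3.51 CPM in EWS(YS37)-FLI1, against 0.738, 1.52 and 0.747 CPM in mCherry (log2 fold change 1.82 ± 0.41 SE, adjusted p = 0.0021). Every EWS(YS37)-FLI1 library exceeded every mCherry library for both genes. IFIT1, their neighbour on chromosome 10, went the other way, with 10.2, 14.6 and 13.9 CPM in EWS(YS37)-FLI1, against 17.1, 22.4 and 16.3 CPM in mCherry (log2 fold change -0.52 ± 0.15 SE, adjusted p = 0.0127), and this call was lost without EWS(YS37)-FLI1 replicate 1 (adjusted p = 0.0995) or mCherry replicate 2 (adjusted p = 0.121).

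RSAD2, or viperin, which makes a chain-terminating nucleotide, had 1.36, 1.05 and 0.916 CPM in EWS(YS37)-FLI1, against 0.105, 0 and 0.267 CPM in mCherry (log2 fold change 3.05 ± 0.84 SE, adjusted p = 0.0103). The groups did not overlap, but the mCherry libraries held few counts, and the call was lost without mCherry replicate 2 (adjusted p = 0.0597). The RNA sensor IFIH1, or MDA5, had 6.65, 7.53 and 8.55 CPM in EWS(YS37)-FLI1, against 3.795, 4.39 and 5.18 CPM in mCherry (log2 fold change 0.77 ± 0.19 SE, adjusted p = 0.00447). IRF1, a transcription factor induced by interferon gamma, had 15.2, 14.9 and 19.3 CPM in EWS(YS37)-FLI1, against 11.2, 10.8 and 10.9 CPM in mCherry (log2 fold change 0.58 ± 0.14 SE, adjusted p = 0.00314). For both, all 3 EWS(YS37)-FLI1 libraries were the higher ones. The guanylate-binding proteins GBP1 (1.12) and GBP2 (0.97), which act on intracellular pathogens, were called higher as well, GBP1 not without mCherry replicate 1 (adjusted p = 0.0613) and GBP2 not without EWS(YS37)-FLI1 replicate 3 (adjusted p = 0.0893), mCherry replicate 1 (adjusted p = 0.0612) or mCherry replicate 2 (adjusted p = 0.0611).

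On the falling side, SAMD9, a translation-blocking antiviral factor, had 12.96, 13.6 and 10.9 CPM in EWS(YS37)-FLI1, against 21.3, 25.5 and 24.9 CPM in mCherry (log2 fold change -0.94 ± 0.13 SE, adjusted p = 1.27e-05). Its neighbour and paralogue SAMD9L had 4.15, 6.11 and 4.43 CPM in EWS(YS37)-FLI1, against 7.06, 9.02 and 7.74 CPM in mCherry (log2 fold change -0.69 ± 0.19 SE, adjusted p = 0.0104), a call lost without EWS(YS37)-FLI1 replicate 1 (adjusted p = 0.0629), EWS(YS37)-FLI1 replicate 3 (adjusted p = 0.0537) or mCherry replicate 2 (adjusted p = 0.0607). IFI44 had 13.5, 19.3 and 13.5 CPM in EWS(YS37)-FLI1, against 24.6, 27.8 and 28.3 CPM in mCherry (log2 fold change -0.80 ± 0.15 SE, adjusted p = 0.000378). IFI44 and SAMD9 did not overlap between the groups. IFI44L (-1.43), IFITM1 (-2.72) and BST2 (-0.51) were also called lower, IFITM1 at very few counts and with 45.9% of its 31-base stretches shared with other genes. TRIM22 (0.25) and OAS3 (0.26) were called higher by small amounts. Of the 16 calls, IFIT2, IFIT3, IFIH1, IRF1, IFI44 and SAMD9 kept theirs with each library left out, length offsets and limma on TPM; without mCherry replicate 2 there were 10 calls.

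Against EWS-FLI1, 9 of 22 calls held in all those settings, namely IFIT2, IFIT3, IFIT5, IFIH1, IFITM2 and ISG20, which were higher, and SAMD9, STAT2 and LGALS3BP, which were lower. FLI1 averaged 1019 CPM in EWS(YS37)-FLI1 and 247.3 CPM in EWS-FLI1. IFIT3 had 6.196, 6.42 and 5.905 CPM in EWS(YS37)-FLI1, against 1.64, 0.63 and 1.504 CPM in EWS-FLI1 (log2 fold change 2.29 ± 0.38 SE, adjusted p = 6.18e-05). IFIT2 had 3.41, 3.63 and 3.51 CPM in EWS(YS37)-FLI1, against 0.715, 1.15 and 1.18 CPM in EWS-FLI1 (log2 fold change 1.79 ± 0.40 SE, adjusted p = 0.00148). Neither overlapped between the groups. RSAD2 had 0.0511, 0 and 0.107 CPM in EWS-FLI1, which is 3 counts or fewer per library, so its fitted log2 value of 4.23 (adjusted p = 0.00138) is no measured ratio. ISG20 had 6.65, 5.95 and 6.62 CPM in EWS(YS37)-FLI1, against 3.88, 3.83 and 4.996 CPM in EWS-FLI1 (log2 fold change 0.60 ± 0.17 SE, adjusted p = 0.00872). CMPK2, a mitochondrial nucleotide kinase transcribed head to head with RSAD2, had 3.01, 3.05 and 1.63 CPM in EWS(YS37)-FLI1, against 0.818, 1.102 and 1.13 CPM in EWS-FLI1 (log2 fold change 1.33 ± 0.39 SE, adjusted p = 0.0114), and lost its call without EWS(YS37)-FLI1 replicate 1 (adjusted p = 0.052), EWS(YS37)-FLI1 replicate 2 (adjusted p = 0.0564) or EWS-FLI1 replicate 1 (adjusted p = 0.054). The spans of RSAD2 and CMPK2 overlap by 830 bases on opposite strands, and whether the libraries kept strand is not given in the sources used here. IFIH1 (0.80), IFITM2 (0.77), IFIT5 (0.64) and GBP2 (0.93) were higher on the log2 scale, and SAMD9 (-0.85), IFI44L (-0.83), UBA7 (-0.80), SAMD9L (-0.68) and LGALS3BP (-0.31) were lower. Of these, GBP2 lost its call without EWS(YS37)-FLI1 replicate 3 (adjusted p = 0.0774) or EWS-FLI1 replicate 2 (adjusted p = 0.0648), IFI44L without EWS(YS37)-FLI1 replicate 2 (adjusted p = 0.054) or EWS-FLI1 replicate 3 (adjusted p = 0.052) and UBA7 without EWS(YS37)-FLI1 replicate 2 (adjusted p = 0.0775) or EWS-FLI1 replicate 3 (adjusted p = 0.0735). In this comparison 4 of the 6 genes grouped as membrane-acting, CMPK2 and the barely detected RSAD2 among them, and 5 of the 11 RNA-directed antiviral genes were called higher, where 16.3% of all genes were. Among the 9 calls that held in all settings, IFITM2 alone was of the membrane-acting class. IFIT2, IFIT3, IFIT5 and ISG20 were of the RNA-directed class. STAT2 (-0.37) and IRF9 (-0.47), partners in the ISRE-binding complex, were called lower, IRF9 not without EWS(YS37)-FLI1 replicate 2 (adjusted p = 0.106), and its transcript shares every 31-base stretch with another annotated gene.

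**Figure D3:**
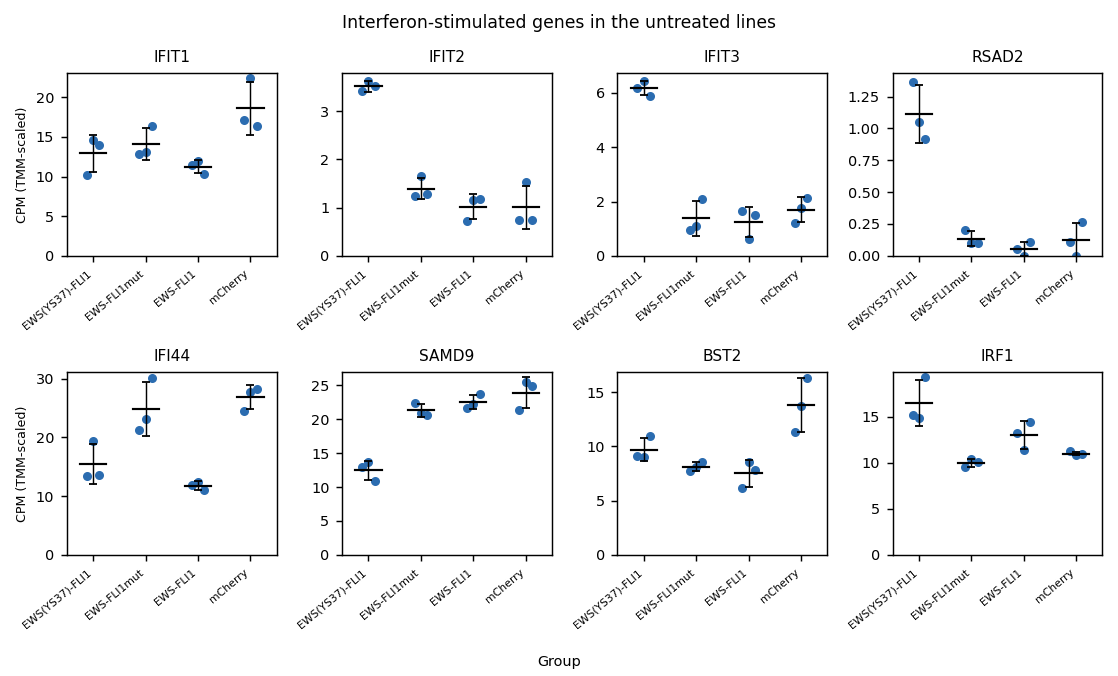
CPM of 8 genes in the 4 untreated lines, with 1 point per library and the mean ± SD (n = 3). IFIT2, IFIT3 and RSAD2 are highest in EWS(YS37)-FLI1, where SAMD9 is lowest, IFI44 is lower in EWS(YS37)-FLI1 and EWS-FLI1 than in EWS-FLI1mut and mCherry, and BST2 is highest in mCherry.

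With LY2835219 some genes fell by 6 h and returned toward or above the untreated level by 24 h. Others were high at 6 h and no longer at 24 h, and others shifted in 1 direction at both times. A further set was called at 24 h only (5 fell and 3 rose), and 11 tested genes were called at neither time. The comparisons of 6 h and 24 h with untreated cells share the same 3 untreated libraries, so the direct comparison of 24 h with 6 h is given beside them. The counts by role that follow stand beside 31.6% of all genes that rose and 33.3% that fell at 6 h, and 23.3% that rose and 24.6% that fell at 24 h. Among the 11 RNA-directed antiviral genes, 4 rose and 3 fell at 6 h, and none rose and 3 fell at 24 h. IFIT1 had 11.4, 11.97 and 10.4 CPM untreated, 3.24, 3.28 and 3.97 CPM at 6 h and 7.54, 6.77 and 7.21 CPM at 24 h. The 6 h libraries were the lowest and the 24 h libraries lay between, with log2 fold changes against untreated cells of -1.68 ± 0.17 SE with adjusted p = 7.95e-09 at 6 h and -0.65 ± 0.16 SE with adjusted p = 0.00142 at 24 h. At 24 h IFIT1 was higher than at 6 h (log2 fold change 1.03 ± 0.18 SE, adjusted p = 1.95e-05).

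IFIT2 had 0.715, 1.15 and 1.18 CPM untreated, 0.245, 0.884 and 0.124 CPM at 6 h and 1.01, 1.32 and 1.04 CPM at 24 h. Its 6 h fall (log2 fold change -1.28 ± 0.49 SE, adjusted p = 0.0262) was lost with 4 of the 6 libraries left out in turn, up to an adjusted p of 0.138, and its rise between the times (log2 fold change 1.42 ± 0.49 SE, adjusted p = 0.0142) without 6 h replicate 1 (adjusted p = 0.0725) or 6 h replicate 3 (adjusted p = 0.0889). The kinase EIF2AK2, which stops translation on sensing double-stranded RNA, had 117, 109 and 95.1 CPM untreated, 72.4, 71.4 and 75.6 CPM at 6 h and 78.2, 79.1 and 88.9 CPM at 24 h. It fell at both times (-0.55 ± 0.071 SE with adjusted p = 3.87e-07 at 6 h and -0.38 ± 0.07 SE with adjusted p = 8.91e-05 at 24 h), with no treated library reaching an untreated one. The exonuclease gene ISG20 rose at 6 h, to 8.195, 7.64 and 7.76 CPM against 3.88, 3.83 and 4.996 CPM untreated (log2 fold change 0.89 ± 0.17 SE, adjusted p = 6.29e-05). At 24 h it had 4.35, 5.83 and 5.39 CPM (log2 fold change 0.29 ± 0.17 SE, adjusted p = 0.164 against untreated cells). OAS3, which makes the messenger that activates RNase L, rose at 6 h (log2 fold change 0.29 ± 0.091 SE, adjusted p = 0.0078) under the TMM scaling, but its log2 value was -0.155 with limma on log2(TPM + 1), and it lost the call without 6 h replicate 2 (adjusted p = 0.0536) or EWS-FLI1 replicate 2 (adjusted p = 0.088).

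Among the GTPases, 3 of 5 rose at 6 h (31.6% of all genes) and none fell. GBP1 had 4.599, 2.62 and 2.79 CPM untreated, 6.73, 6.25 and 7.82 CPM at 6 h and 1.96, 0.6603 and 2.07 CPM at 24 h. It was highest in the 6 h libraries (log2 fold change 1.05 ± 0.30 SE, adjusted p = 0.00398), though this call was lost with length offsets (0.64, adjusted p = 0.147) and with limma on TPM (0.24, adjusted p = 0.409). It was lower at 24 h than at 6 h (log2 fold change -2.14 ± 0.32 SE, adjusted p = 4.15e-06), and its 24 h fall against untreated cells (log2 fold change -1.09 ± 0.33 SE, adjusted p = 0.00903) was lost without 24 h replicate 2 (adjusted p = 0.0512) or EWS-FLI1 replicate 1 (adjusted p = 0.0791). In GBP1, 25.7% of 31-base stretches are shared with other genes, the pseudogene GBP1P1 among them. GBP3 had 8.23, 5.77 and 6.82 CPM untreated, 16.9, 17.5 and 20.6 CPM at 6 h and 11.1, 11.6 and 13.9 CPM at 24 h, and rose at both times (1.40 ± 0.16 SE with adjusted p = 4.43e-08 at 6 h and 0.81 ± 0.16 SE with adjusted p = 0.000173 at 24 h). On protein-coding transcripts only, its calls were lost at 6 h (1.06, adjusted p = 0.286) and at 24 h (0.73, adjusted p = 0.538). MX1, which traps viral nucleocapsids, had 4.804, 3.46 and 4.297 CPM untreated, 9.42, 11.4 and 11.4 CPM at 6 h and 6.103, 5.34 and 7.46 CPM at 24 h (log2 fold change 1.36 ± 0.18 SE, adjusted p = 3.41e-07 at 6 h). Its 6 h libraries did not overlap with the untreated ones, and the counts behind the rise lay on transcripts that are not typed as protein-coding.

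Of the 6 genes grouped as membrane-acting, which include the nucleotide kinase CMPK2, 4 fell at 24 h (24.6% of all genes) and none rose. At 6 h CMPK2 alone was called, and it fell (33.3% of all genes fell). IFITM3 had 50.3, 56.6 and 61.2 CPM untreated, 64.03, 65.98 and 54.9 CPM at 6 h and 37.99, 43.4 and 34.01 CPM at 24 h (log2 fold change -0.54 ± 0.093 SE, adjusted p = 3.49e-05 at 24 h). IFITM2 had 15.2, 14.4 and 16.8 CPM untreated, 15.3, 17.3 and 15.6 CPM at 6 h and 10.7, 12.3 and 9.38 CPM at 24 h (log2 fold change -0.52 ± 0.11 SE, adjusted p = 0.000567 at 24 h). Both had their lowest values at 24 h, without overlap with the other times, and 16.1% of the 31-base stretches of IFITM2 occur in IFITM3. BST2 also fell at 24 h (log2 fold change -0.52 ± 0.18 SE, adjusted p = 0.02), a call lost without 24 h replicate 2 (adjusted p = 0.0617), 24 h replicate 3 (adjusted p = 0.102) or EWS-FLI1 replicate 2 (adjusted p = 0.0795). CMPK2 had 0.818, 1.102 and 1.13 CPM untreated, 0.122, 0.126 and 0.248 CPM at 6 h and 0.531, 0.385 and 0.207 CPM at 24 h, and fell at both times (-2.57 ± 0.54 SE with adjusted p = 0.000204 at 6 h and -1.43 ± 0.46 SE with adjusted p = 0.0131 at 24 h). Its 24 h call was lost without 24 h replicate 3 (adjusted p = 0.0711), with length offsets (-0.68, adjusted p = 0.398) and with limma on TPM (-0.25, adjusted p = 0.44). RSAD2 was not called at either time, at 0.122, 0 and 0.186 CPM at 6 h and 0.637, 0.05502 and 0.156 CPM at 24 h.

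The RNA sensors split. IFIH1 had 4.09, 5.09 and 3.92 CPM untreated, 9.85, 6.88 and 7.01 CPM at 6 h and 4.19, 4.57 and 5.702 CPM at 24 h, and rose at 6 h (log2 fold change 0.86 ± 0.19 SE, adjusted p = 0.000359). DDX58, or RIG-I, had 15.03, 12.9 and 15.4 CPM untreated, 11.7, 10.9 and 11.1 CPM at 6 h and 16.1, 16.6 and 17.1 CPM at 24 h, and fell at 6 h (log2 fold change -0.36 ± 0.13 SE, adjusted p = 0.016). Between 24 h and 6 h IFIH1 fell (-0.71 ± 0.19 SE with adjusted p = 0.00202), a call lost with limma on TPM (-0.25, adjusted p = 0.202), and DDX58 rose (0.56 ± 0.13 SE with adjusted p = 0.00048).

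Of the 4 STAT and IRF genes, STAT2 and IRF1 moved in opposite directions. IRF1 had 13.3, 11.3 and 14.4 CPM untreated, 28.8, 29.99 and 24.4 CPM at 6 h and 12.05, 9.08 and 8.398 CPM at 24 h. The 6 h libraries stood above the rest (log2 fold change 1.09 ± 0.13 SE, adjusted p = 1.45e-07), and 24 h was lower than 6 h (log2 fold change -1.49 ± 0.14 SE, adjusted p = 1.57e-09). Its 24 h fall against untreated cells (log2 fold change -0.40 ± 0.14 SE, adjusted p = 0.0202) was lost with 4 of 6 libraries left out in turn, up to an adjusted p of 0.116. STAT2 had 56.2, 59.4 and 64.1 CPM untreated, 47.3, 48.3 and 45.5 CPM at 6 h and 78.7, 71.04 and 70.7 CPM at 24 h, with -0.35 ± 0.091 SE with adjusted p = 0.00186 at 6 h and 0.29 ± 0.089 SE with adjusted p = 0.00842 at 24 h on the log2 scale. The 24 h rise was lost without 24 h replicate 1 (adjusted p = 0.0541) and on protein-coding transcripts only (0.13, adjusted p = 0.333). IRF9 was not called at 6 h (log2 fold change 0.16 ± 0.14 SE, adjusted p = 0.355) or 24 h (log2 fold change 0.17 ± 0.14 SE, adjusted p = 0.338), nor was the low-level IRF7, the factor that amplifies type I interferon production (0.60 and 1.04, adjusted p = 0.399 and 0.151).

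In the ISG15 system, the protease gene fell and the activating enzyme gene rose at 6 h. USP18 had 4.24, 4.25 and 4.405 CPM untreated, 1.101, 0.379 and 1.55 CPM at 6 h and 2.49, 2.201 and 1.97 CPM at 24 h (-2.08 ± 0.28 SE with adjusted p = 5.36e-07 at 6 h and -0.95 ± 0.24 SE with adjusted p = 0.00249 at 24 h). UBA7, the E1 enzyme that activates ISG15, had 4.09, 6.404 and 7.04 CPM untreated, 12.4, 11.5 and 10.4 CPM at 6 h and 3.08, 3.47 and 4.095 CPM at 24 h. It rose at 6 h (log2 fold change 0.97 ± 0.23 SE, adjusted p = 0.000897) and was lower at 24 h than at 6 h (log2 fold change -1.68 ± 0.24 SE, adjusted p = 2.03e-06). Its 24 h fall against untreated cells (-0.72) was lost without 24 h replicate 1 (adjusted p = 0.0754), EWS-FLI1 replicate 2 (adjusted p = 0.054) or EWS-FLI1 replicate 3 (adjusted p = 0.0812), and with length offsets (-0.76, adjusted p = 0.154) and with limma on TPM (-0.56, adjusted p = 0.153). HERC5, the main human ISG15 ligase, had 0.664, 0.682 and 0.698 CPM untreated, 1.28, 1.39 and 1.99 CPM at 6 h and 1.43, 1.21 and 1.56 CPM at 24 h, and its calls were lost without 6 h replicate 3 (adjusted p = 0.0801) at 6 h and with any library left out at 24 h. A HERC5 transcript of 662 codons held 99.06% of the mean TPM of HERC5, and its transcript of 1024 codons had a mean of 0 TPM. HERC6, its relative, had 5.83, 6.404 and 5.801 CPM untreated, 4.04, 2.84 and 2.67 CPM at 6 h and 8.17, 7.59 and 6.38 CPM at 24 h (-0.91 ± 0.18 SE with adjusted p = 7.76e-05 at 6 h and 1.21 ± 0.17 SE with adjusted p = 1.92e-06 between 24 h and 6 h), with the 6 h call lost with length offsets (-0.59, adjusted p = 0.24) and with limma on TPM (-0.60, adjusted p = 0.131). ISG15 itself had 10.6, 12.5 and 12.2 CPM untreated, 11.01, 11.2 and 10.98 CPM at 6 h and 8.65, 8.75 and 7.21 CPM at 24 h, and fell at 24 h against untreated cells (log2 fold change -0.52 ± 0.15 SE, adjusted p = 0.00528).

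Among the nuclear body, TRIM and PARP genes, 4 of 6 rose (23.3% of all genes) and 2 fell (24.6%) at 24 h. PARP9 had 31.4, 32.4 and 31.7 CPM untreated, 20.9, 16.8 and 20.9 CPM at 6 h and 47.3, 47.8 and 47.6 CPM at 24 h (-0.70 ± 0.084 SE with adjusted p = 9.45e-08 at 6 h and 0.58 ± 0.078 SE with adjusted p = 1.45e-06 at 24 h). Its partner and head-to-head neighbour DTX3L, a ubiquitin ligase, had 61.3, 59.7 and 55.01 CPM untreated, 84.1, 75.8 and 77.2 CPM at 6 h and 75.4, 76.5 and 75.7 CPM at 24 h (0.43 ± 0.063 SE with adjusted p = 2.23e-06 at 6 h and 0.37 ± 0.063 SE with adjusted p = 3.09e-05 at 24 h). The DTX3L calls were lost with limma on TPM (0.08, adjusted p = 0.523) at 6 h and with limma on TPM (0.25, adjusted p = 0.0638) at 24 h, while the PARP9 calls were kept with limma. Their spans overlap by 340 bases on opposite strands. PML, which builds the nuclear bodies that carry its name, fell at 24 h to 48.9, 48.6 and 42.2 CPM against 57.2, 58.8 and 59.1 CPM untreated (log2 fold change -0.33 ± 0.071 SE, adjusted p = 0.000533). TRIM22 rose at both times (0.79 at 6 h and 0.65 at 24 h), and PARP14 fell at both (-0.31 and -0.19), at 24 h not without EWS-FLI1 replicate 1 (adjusted p = 0.118). SP100, a second nuclear body protein, rose at 24 h to 40.5, 38.3 and 40.1 CPM against 28.1, 28.5 and 28.8 CPM untreated (log2 fold change 0.48 ± 0.08 SE, adjusted p = 2.77e-05).

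Among the remaining genes 3 rose and 3 fell at 6 h, and 4 rose and 2 fell at 24 h, with SAMD9 and SAMD9L among those that fell at 6 h. SAMD9 had 21.7, 22.2 and 23.7 CPM untreated, 4.89, 4.04 and 5.46 CPM at 6 h and 11.4, 15.3 and 17.5 CPM at 24 h (-2.23 ± 0.15 SE with adjusted p = 4.27e-12 at 6 h and -0.61 ± 0.13 SE with adjusted p = 0.000394 at 24 h). SAMD9L had 8.28, 7.45 and 7.84 CPM untreated, 4.65, 3.599 and 3.16 CPM at 6 h and 10.9, 10.5 and 13.4 CPM at 24 h (-1.04 ± 0.20 SE with adjusted p = 6.47e-05 at 6 h and 0.56 ± 0.18 SE with adjusted p = 0.0133 at 24 h). Neither overlapped between 6 h and untreated cells, and the 24 h rise of SAMD9L was lost without 24 h replicate 3 (adjusted p = 0.0814) or EWS-FLI1 replicate 2 (adjusted p = 0.0595). SAMD9L also lost its calls with length offsets (-0.51, adjusted p = 0.32) and with limma on TPM (-0.48, adjusted p = 0.171) at 6 h, and with length offsets (0.49, adjusted p = 0.37) and with limma on TPM (0.28, adjusted p = 0.493) at 24 h. IFI44 had 11.96, 12.4 and 11.01 CPM untreated, 3.79, 4.99 and 5.77 CPM at 6 h and 16.1, 17.9 and 13.8 CPM at 24 h (-1.28 ± 0.18 SE with adjusted p = 9.34e-07 at 6 h and 1.72 ± 0.17 SE with adjusted p = 9.04e-09 between 24 h and 6 h). Its rise at 24 h against untreated cells (0.43) was lost with 5 of the 6 libraries left out in turn, up to an adjusted p of 0.155, and with limma on TPM (0.44, adjusted p = 0.0663). Its neighbour IFI44L on chromosome 1 had 2.504, 3.31 and 3.76 CPM untreated, 3.67, 2.65 and 2.67 CPM at 6 h and 6.53, 6.88 and 7.93 CPM at 24 h, and rose at 24 h (log2 fold change 1.16 ± 0.22 SE, adjusted p = 0.000135), a call lost with length offsets (0.60, adjusted p = 0.43) and with limma on TPM (0.51, adjusted p = 0.347). IFI6, which inhibits apoptosis, fell at 24 h (log2 fold change -0.49 ± 0.13 SE, adjusted p = 0.00307); its small 6 h rise (0.30) had the opposite sign with limma on log2(TPM + 1) (-0.063). IFI35, a leucine zipper protein, had 0.795, 1.26 and 1.55 CPM at 6 h, against 0.102, 0.157 and 0.107 CPM untreated (log2 fold change 3.23 ± 0.77 SE, adjusted p = 0.000823), at few counts. The apoptosis-associated XAF1 rose at 24 h (log2 fold change 0.69 ± 0.24 SE, adjusted p = 0.0184), not without 24 h replicate 3 (adjusted p = 0.241) or EWS-FLI1 replicate 2 (adjusted p = 0.123), nor with length offsets (0.67, adjusted p = 0.0623) and with limma on TPM (0.49, adjusted p = 0.0991). The 6 h rise of LGALS3BP (0.19) likewise turned to -0.053 without scaling factors and -0.178 with limma on TPM.

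Set directly against 6 h, the 24 h libraries were highest above it among called genes for IFI44 (1.72), SAMD9 (1.62), SAMD9L (1.61), IFIT2 (1.42) and PARP9 (1.28) on the log2 scale. They were farthest below it for GBP1 (-2.14), IFI35 (-1.74), UBA7 (-1.68), IRF1 (-1.49), IFI6 (-0.80) and MX1 (-0.77). IFI35 lost this call with 4 of the 6 libraries left out in turn, up to an adjusted p of 0.103. Within the IFIT family, IFIT5 fell between these times (-0.42) while IFIT1 and IFIT2 rose.

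Calls kept with every library left out, with length offsets and with limma on TPM numbered 17 of 29 at 6 h (8 rose, 9 fell), 13 of 28 at 24 h (4 rose, 9 fell) and 17 of 30 between 24 h and 6 h (8 rose, 9 fell). Without TMM factors the median of all genes at 6 h was -0.27 in place of -0.02 on the log2 scale, and 10 of the 48 genes were called higher and 17 lower, in place of 16 and 13; with limma on TPM the split was 9 and 18. With limma on TPM the median of all genes at 6 h was -0.26. Between 24 h and 6 h the same settings gave 19 higher and 10 lower, and 15 and 9, in place of 13 and 17. There the median of all genes moved too, to 0.31 without TMM factors and 0.21 with limma on TPM, in place of 0.05.

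**Figure D4:**
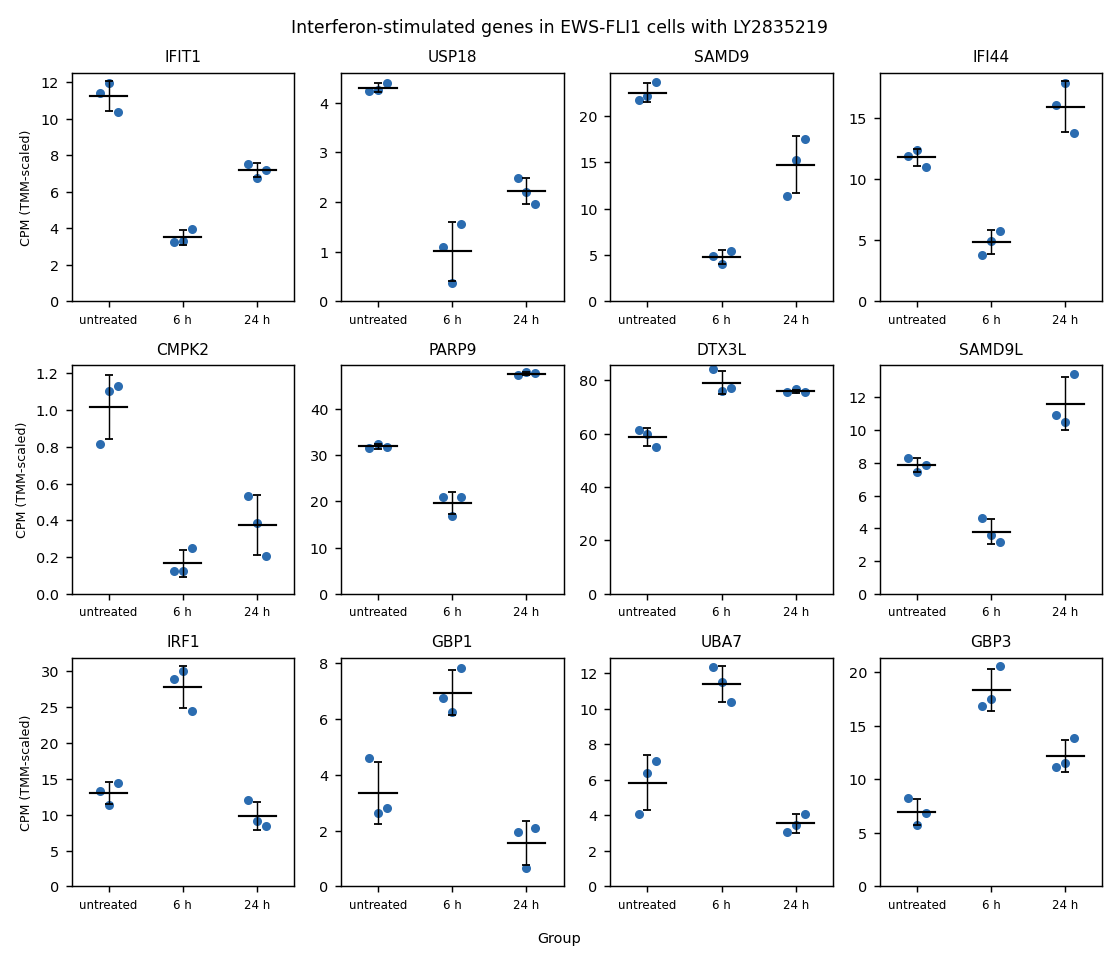
CPM of 12 genes in EWS-FLI1 cells untreated and after 6 h and 24 h of LY2835219, with 1 point per library and the mean ± SD (n = 3). IFIT1, USP18, SAMD9, IFI44, CMPK2, PARP9 and SAMD9L have their lowest mean at 6 h, and DTX3L, IRF1, GBP1, UBA7 and GBP3 their highest.

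Counts of a gene can lie on transcripts that GENCODE types as protein-coding or on others, such as transcripts with a retained intron or subject to nonsense-mediated decay, and these parts were tested apart; this split was chosen after the data had been seen. For the 23 genes with enough counts in both parts, the parts responded differently at 6 h in 7 (adjusted p below 0.05 for the difference), where 23.5% of all genes with both parts did. Whether 7 of 23 differs from that share was not tested, so the split is not read as particular to these genes. Transcripts of these other types held 6.74% to 8.05% of the genes' counts in untreated EWS-FLI1 cells, 10.78% to 11.45% at 6 h and 7.89% to 10.4% at 24 h. Over all coding genes the same share was 7.73% to 8.29% untreated, 8.78% to 8.95% at 6 h and 8.37% to 9.24% at 24 h.

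STAT2 shows what the split changes. Its coding transcripts had 21.9, 23.3 and 17.9 CPM at 6 h, against 45.4, 50.2 and 46.9 CPM in untreated cells (log2 fold change -1.17 ± 0.10 SE, adjusted p = 1.39e-08). Its other transcripts had 24, 23.6 and 26.3 CPM at 6 h, against 11.9, 10.3 and 17.4 CPM untreated (log2 fold change 0.90 ± 0.33 SE, adjusted p = 0.0315). The coding part fell in every 6 h library while the other part rose, and the difference between the parts had an adjusted p of 1.34e-05. The whole gene's log2 fold change of -0.35 sums these opposite changes.

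TRIM22, a RING-domain restriction factor, rose at 6 h mainly on other transcripts, which had 19.96, 23.3 and 20.1 CPM at 6 h, against 4.95, 4.07 and 5.45 CPM untreated (log2 fold change 2.13 ± 0.20 SE, adjusted p = 4.37e-08). Its coding transcripts had 30.9, 28.4 and 31.6 CPM at 6 h, against 24.8, 27.4 and 26.7 CPM untreated (log2 fold change 0.21 ± 0.078 SE, adjusted p = 0.0353). MX1 had 8.49, 10.5 and 10.4 CPM on other transcripts at 6 h, against 3.33, 2.52 and 3.13 CPM untreated (log2 fold change 1.71 ± 0.22 SE, adjusted p = 1.98e-06). Its coding transcripts had 0.653, 0.552 and 0.663 CPM at 6 h, against 1.56, 1.02 and 1.19 CPM untreated (log2 fold change -1.003 ± 0.46 SE, adjusted p = 0.0808), so the rise of MX1 was not seen in its coding part. Of the counts of MX1 on other transcripts, the retained-intron transcript MX1-212 held most. PARP9 had 17.3, 13.9 and 16.8 CPM on coding transcripts at 6 h, against 31.3, 32.3 and 31.3 CPM untreated (log2 fold change -0.98 ± 0.087 SE, adjusted p = 1.86e-08), and the low counts of its other transcripts rose (log2 fold change 2.21 ± 0.61 SE, adjusted p = 0.00518).

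IFI44, ADAR and PML were the other 3 genes with unlike parts at 6 h. In IFI44 the coding part fell more than the whole gene (log2 fold change -2.17 ± 0.24 SE, adjusted p = 4.7e-07). In ADAR the other part rose more (log2 fold change 0.98 ± 0.15 SE, adjusted p = 1.66e-05) than the coding part (log2 fold change 0.18 ± 0.052 SE, adjusted p = 0.00624). In PML the other part fell (log2 fold change -0.85 ± 0.26 SE, adjusted p = 0.0105). At 24 h against untreated cells 0 of the 23 genes differed between the parts (3 at an unadjusted p below 0.05; edgeR's diffSpliceDGE, the only tool run for this), where 6.12% of all such genes did. Between 24 h and 6 h the number was 7, where 17.2% of all such genes did. Assignment of reads to transcripts of 1 gene is an estimate, and reads from unspliced RNA cannot be told apart from retained-intron transcripts here.

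**Figure D5:**
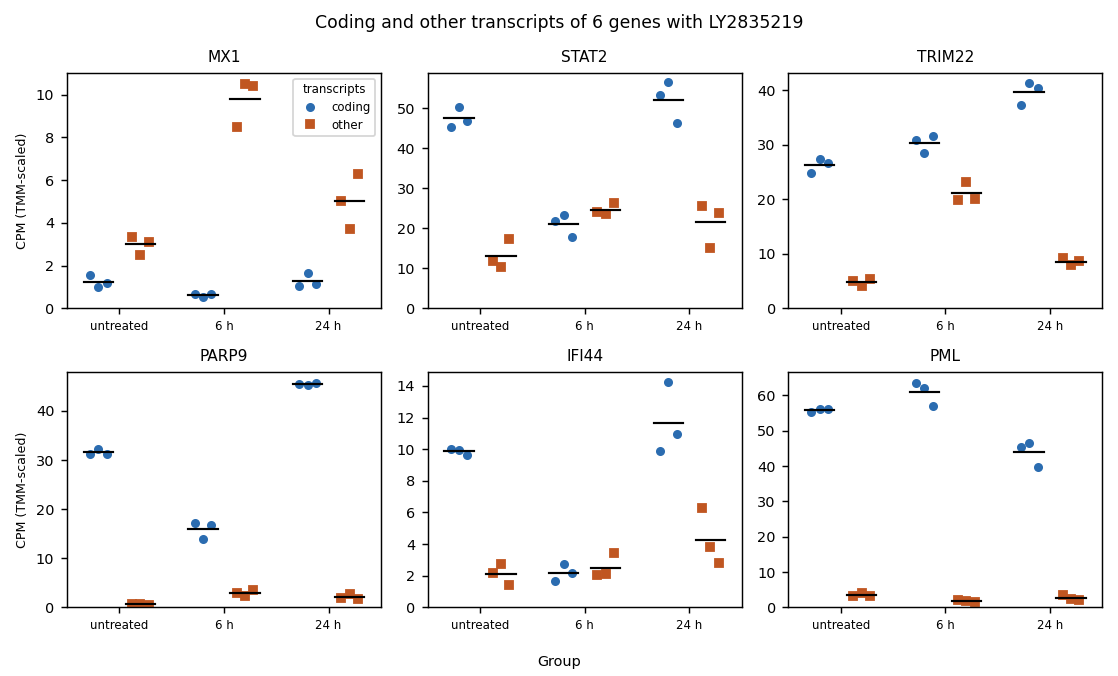
CPM on coding transcripts and on other transcripts of 6 genes in EWS-FLI1 cells untreated and at 6 h and 24 h of LY2835219, with 1 point per library and a line at the mean (n = 3). At 6 h the coding parts of STAT2, PARP9 and IFI44 are low and the other parts of STAT2, TRIM22 and MX1 are high.

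ADAR makes a long, interferon-inducible form and a short form that is always made, from transcripts with different starts. Transcripts with a reading frame of 1157 to 1226 codons were summed as the long form and those of 931 codons as the short form. The long form averaged 37.6 ± 5.12 TPM untreated, 39.9 ± 2.16 TPM at 6 h and 32.9 ± 1.15 TPM at 24 h (SD, n = 3). Its share of the 2 forms averaged 51.7% ± 7.56 untreated, 59.5% ± 3.7 at 6 h and 49.2% ± 3.22 at 24 h. The share was 56.2%, 63.5% and 58.8% in the 6 h libraries and 44.4%, 59.5% and 51.2% in the untreated ones, which overlap, and it was not tested.

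The rest of the interferon pathway was read from lists of genes that are not among the 50. Their counts stand beside 31.6% of all genes that rose and 33.3% that fell at 6 h, and 23.3% that rose and 24.6% that fell at 24 h. Of 8 negative regulators of interferon signalling, 1 rose and 4 fell at 6 h, and none rose and 6 fell at 24 h. SOCS1, which inhibits JAK kinases, had 13.2, 13.4 and 12.9 CPM untreated, 2.997, 1.83 and 1.74 CPM at 6 h and 2.6, 2.64 and 1.296 CPM at 24 h (-2.58 ± 0.25 SE with adjusted p = 3.09e-09 at 6 h and -2.59 ± 0.24 SE with adjusted p = 5.76e-09 at 24 h). SOCS3, its relative on cytokine receptors, had 67.2, 82.1 and 72.9 CPM untreated, 14.6, 15.7 and 15.1 CPM at 6 h and 55.98, 69.5 and 64.3 CPM at 24 h (-2.29 ± 0.10 SE with adjusted p = 1.96e-15 at 6 h). IRF2, a repressor at ISRE sites, fell at 6 h (log2 fold change -1.47 ± 0.12 SE, adjusted p = 2.99e-10).

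Beside the same shares of all genes, of 11 receptor, JAK and STAT genes, 4 rose and 2 fell at 6 h, and 3 rose and 1 fell at 24 h. More of these 11 genes thus rose than fell at both times. On the smaller, falling side, the interferon lambda receptor gene IFNLR1 fell at 6 h (log2 fold change -2.17 ± 0.22 SE, adjusted p = 1.03e-08). IFNGR2, a chain of the interferon gamma receptor, fell at 24 h (log2 fold change -1.13 ± 0.082 SE, adjusted p = 6.07e-11). Of 11 nucleic acid sensing genes, 2 rose and 6 fell at 6 h, and 2 rose and 2 fell at 24 h. CGAS, which senses DNA, had 10.3, 8.87 and 10.2 CPM untreated, 3.91, 4.42 and 6.83 CPM at 6 h and 5.25, 5.83 and 5.08 CPM at 24 h (-0.95 ± 0.18 SE with adjusted p = 8.74e-05 at 6 h and -0.86 ± 0.18 SE with adjusted p = 0.00038 at 24 h). TMEM173, or STING, which relays its signal, changed by -0.998 ± 0.36 SE with adjusted p = 0.0188 at 6 h and -1.09 ± 0.36 SE with adjusted p = 0.0144 at 24 h on the log2 scale. MAVS, the adaptor of the RNA sensors, had -0.49 ± 0.055 SE with adjusted p = 4.35e-08 at 6 h and 0.28 ± 0.054 SE with adjusted p = 0.000136 at 24 h. Of 6 tested genes that lean toward interferon gamma, 2 rose and 1 fell at 6 h. CD274, or PD-L1, rose at 6 h to 21.7, 20.9 and 22.5 CPM against 7.77, 5.93 and 6.39 CPM untreated (log2 fold change 1.70 ± 0.15 SE, adjusted p = 8.3e-10). B2M, the shared light chain of MHC class I molecules, had 273, 269 and 284 CPM untreated, 435, 420.4 and 443 CPM at 6 h and 362, 403 and 389.6 CPM at 24 h (0.65 ± 0.063 SE with adjusted p = 2.91e-09 at 6 h and 0.48 ± 0.062 SE with adjusted p = 7.9e-07 at 24 h). It is 1 of a list of 15 MHC class I and antigen processing genes, and the others are not described here.

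The 6 tested genes OAS1, OAS2, OASL, MX2, IFI27 and IRF7 were called in none of the 8 comparisons. OAS1, OAS2 and IRF7 had a mean level under 1 TPM. OAS1, for example, had 0.612, 0.316 and 0.186 CPM at 6 h, against 0.511, 1.36 and 0.591 CPM untreated (log2 fold change -1.13 ± 0.56 SE, adjusted p = 0.0824).

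In EWS(YS37)-FLI1 against mCherry, where 11.5% of all genes rose and 10.2% fell, 2 of 8 negative regulators fell and none rose, SOCS1 among them (log2 fold change -1.26 ± 0.23 SE, adjusted p = 0.000251), and 3 of 11 sensing genes rose and none fell. IKBKE, a kinase that activates IRF factors, had 19.4, 19.9 and 17.6 CPM in EWS(YS37)-FLI1, against 11.1, 9.02 and 9.87 CPM in mCherry (log2 fold change 0.92 ± 0.12 SE, adjusted p = 5.25e-06). TICAM1, the adaptor of TLR3, had 15.7, 15.9 and 16.03 CPM in EWS(YS37)-FLI1, against 9.07, 9.56 and 7.42 CPM in mCherry (log2 fold change 0.87 ± 0.12 SE, adjusted p = 8.74e-06). In EWS-FLI1 against mCherry the changes were 0.70 ± 0.12 SE with adjusted p = 0.000195 for IKBKE and 0.71 ± 0.12 SE with adjusted p = 0.000132 for TICAM1 on the log2 scale.

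Split by promoter letters, genes with an ISRE core had 11 that rose and 5 that fell of 23 tested at 6 h (median log2 0.29), and those without had 3 and 6 of 14 (median -0.16). At 24 h against untreated cells those with the core had 6 and 10 (median 0.06) and those without 5 and 2 (median 0.29). Between 24 h and 6 h those with the core had 5 that rose and 11 that fell (median -0.42), and those without 6 and 3 (median 0.51). Of all genes 31.6% rose and 33.3% fell at 6 h, 23.3% and 24.6% at 24 h, and 32.6% and 30.3% between the times. Without scaling factors 10 of the 48 genes were called higher and 17 lower at 6 h, in place of 16 and 13. The split by class was not repeated in that setting. The difference between the classes was not tested. A class also depends on the start that a window covers. The ADAR window lies at starts of the short form and not at those of the long form, and the PARP9 window lies within the span of DTX3L. In the untreated lines the medians of the classes were 0.03 with and 0.03 without the core for EWS(YS37)-FLI1 against mCherry, and -0.09 with and -0.06 without it for EWS-FLI1 against mCherry. The 3 genes with the tandem ETS core went separate ways in EWS(YS37)-FLI1 against mCherry, where IFIT3 rose (1.85), SAMD9 fell (-0.94) and PARP9 was not called (log2 fold change -0.0003 ± 0.078 SE, adjusted p = 0.999).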

How the data were processed

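RNA of 18 U2OS libraries in 6 groups of 3 was measured. Per the submitters' processing notes, the authors used CASAVA and kallisto 0.46 with hg38. The authors deposited 1 transcript table per library, with an estimated count, a TPM value and an effective length (in bases, another unit and no level) per transcript, per the file headers. The transcript set, index options and strandedness are not given in the sources used here.

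Transcripts were joined to GENCODE 29 genes by Ensembl transcript identifier, which matched 169797 of 188753. Unmatched transcripts held 2.59% to 2.74% of a library's estimated counts and were not used. Gene counts are rounded sums of estimated counts. CPM are TMM-scaled. Totals of 16261034 to 20270637 counts per library limit the precision for low genes.

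Tests used edgeR 4.0.16 in R 4.3.3, with TMM, filterByExpr and 1 quasi-likelihood fit of all 18 libraries (16785 genes, 12 residual degrees of freedom, biological coefficient of variation 8.77%). Benjamini-Hochberg adjustment ran over all genes, and a gene was called below an adjusted p of 0.05. A standard error is the log2 fold change divided by the square root of its F. The fit was tested on simulated data. Alternatives were DESeq2 1.42.0, no scaling factors, no low-count filter, limma 3.58.1 on log2(TPM + 1), length offsets, the replicate number as a block, and each library left out. Coding and other transcripts were separated with edgeR's diffSpliceDGE.

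The members and lists were chosen with earlier results of these data known. Named genes were the called members with the largest changes, up to 8 in each direction and comparison, the most abundant of each role, the regulators, and from the pathway lists up to 3 called genes. Replicates are biological per the labels, which give no source for separate cultures, so the p-values measure the spread between these libraries.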

Additional observations from a re-analysis of the deposited data

Results flagged for a closer look

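A first set of genes stood out because the response to LY2835219 differed between 24 h and 6 h, as tested by the direct comparison of these times, either by at least 1 on the log2 scale or with calls in opposite directions against the shared untreated libraries. Higher at 24 h than at 6 h on the log2 scale were IFI44 1.72, SAMD9 1.62, SAMD9L 1.61, IFIT2 1.42, PARP9 1.28, IFI44L 1.24, HERC6 1.21, USP18 1.13, IFIT1 1.03 and STAT2 0.64. Lower at 24 h than at 6 h were GBP1 -2.14, IFI35 -1.74, UBA7 -1.68, IRF1 -1.49, IFI6 -0.80 and OAS3 -0.70. Calls in opposite directions against untreated cells were made for OAS3 (0.29 at 6 h and -0.41 at 24 h), GBP1 (1.05 at 6 h and -1.09 at 24 h), STAT2 (-0.35 at 6 h and 0.29 at 24 h), IRF1 (1.09 at 6 h and -0.40 at 24 h), UBA7 (0.97 at 6 h and -0.72 at 24 h), PARP9 (-0.70 at 6 h and 0.58 at 24 h), IFI44 (-1.28 at 6 h and 0.43 at 24 h), IFI6 (0.30 at 6 h and -0.49 at 24 h) and SAMD9L (-1.04 at 6 h and 0.56 at 24 h). Among these, the 24 h call was kept in 1 of 6 fits with a library left out for IFI44, 2 for IRF1, 3 for UBA7, 4 for GBP1 and SAMD9L and 5 for STAT2, and the 6 h call in 1 of 6 for IFI6 and 4 for OAS3.

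A second set stood out because the untreated constructs differed by at least 1 on the log2 scale in their direct comparison. EWS(YS37)-FLI1 exceeded EWS-FLI1 by 2.29 for IFIT3, 1.79 for IFIT2, 4.23 for RSAD2 and 1.33 for CMPK2. EWS-FLI1mut exceeded EWS-FLI1 by 1.07 for IFI44. RSAD2 and CMPK2 rest on few counts. The part of the FLI1 level, which also differed between these lines, was not tested.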

How the results depend on the processing

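For 384 log2 fold changes of the 48 genes in 8 comparisons, the call was followed, with the sign where a change was called. Both were kept in 375 without the low-count filter, 356 without scaling factors, 322 with length offsets and 316 with limma on log2(TPM + 1). With DESeq2 360 were kept, 2 gained a call, 1 lost its call and 0 reversed. The remaining changes had no adjusted p in DESeq2. OAS3 (-0.155), IFI6 (-0.063) and LGALS3BP (-0.178) reversed at 6 h with limma, and LGALS3BP (-0.053) without scaling factors. With protein-coding transcripts only, an alternative chosen after seeing the data, MX1 reversed at 6 h (-1.003) and between 24 h and 6 h (1.036).

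The number of called genes in EWS-FLI1 against mCherry was 10, and 5 with limma, 5 with length offsets, 6 with coding transcripts only and 6 to 8 with 1 library left out. EWS-FLI1mut against mCherry gave 2, and 1 with limma, 1 with length offsets and 1 to 3 with 1 library left out, 1 of them without mCherry replicate 3. EWS(YS37)-FLI1 against mCherry gave 16, and 10 with limma, 7 with length offsets, 10 with coding transcripts only and 10 to 14 with 1 library left out. EWS-FLI1mut against EWS-FLI1 gave 9, and 5 with limma. EWS(YS37)-FLI1 against EWS-FLI1 gave 22, and 11 with limma, 13 with length offsets and 14 with coding transcripts only. Over all genes tested the called number fell with limma and with length offsets too. It went from 3536 to 1679 and 1701 in EWS-FLI1 against mCherry and from 1200 to 384 and 360 in EWS-FLI1mut against mCherry. In EWS(YS37)-FLI1 it went from 3646 to 1907 and 1961 against mCherry and from 5224 to 2990 and 3001 against EWS-FLI1. EWS-FLI1mut against EWS-FLI1 went from 2734 to 1276 and 1262. The cause of these changes was not tested. In the 3 drug comparisons the counts stayed within 1.5 times of 29, 28 and 30 in every setting.

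Fitting the replicate number as a block kept 382 of 384 results and lowered the count between 24 h and 6 h to 28, losing EIF2AK2 (0.17, adjusted p = 0.0503) and BST2 (-0.42, adjusted p = 0.0549). Deviations from the group mean, over all genes tested, correlated between -0.038 and 0.062 in libraries with the same number. Pairs with unlike numbers were not set beside them, so this cannot decide whether same-numbered libraries share a culture or batch. Low counts limit IFIT2, RSAD2, CMPK2, OAS1, OAS2 and HERC5 most.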
